A study of Mus musculus with 12 samples.

Results

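CLIP-seq maps where a protein sits on RNA: protein and RNA are cross-linked, the protein is pulled down with an antibody, and the RNA attached to it is sequenced. Here it was done for the RNA-binding protein hnRNP H in striatum of the mouse. The authors called binding peaks in 1 list per treatment, and the regions described here are the 3′ UTR peaks that stand in the list of saline-treated mice and not, at the same position, in that of methamphetamine-treated mice. A position was a chromosome, start and strand, and it counted as 3′ UTR where its midpoint lay in a 3′ UTR of the deposited region rows. This gave 457 positions of 100 nt in 390 genes, among 4808 saline-only positions of every region and 14711 distinct positions in either list. Of the 1075 3′ UTR positions of the saline list, the other 618 were in both lists, and 860 more 3′ UTR positions were in the methamphetamine list only. The members were selected on the saline and methamphetamine CLIP values themselves, so their CLIP levels in the 2 treatments are given as a description. Fits of the CLIP counts over all positions are given as background, and their counts of members are no test of the members.

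The pools were of wild-type C57BL/6J mice of postnatal day 50 to 100, bred from C57BL/6J dams and sires heterozygous for an Hnrnph1 mutation. After 2 days with a saline injection, a mouse was given on day 3 saline once more or the psychostimulant methamphetamine (2 mg/kg), and its whole striatum was taken 30 min later. Each library came from a pool of striata of 4 mice, 2 females and 2 males, and there were 3 pools per treatment. RNA-seq libraries were made from a portion of the same pools set aside before cross-linking, so 6 CLIP and 6 RNA-seq libraries were compared. Spread and p-values refer to pools, not to single mice.

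hnRNP H belongs to the heterogeneous nuclear ribonucleoproteins, proteins that coat nuclear RNA and help to decide how it is spliced and processed. Its quasi-RNA recognition motifs hold runs of guanine (G-runs), which are also the sequences that can fold into G-quadruplexes. The 3′ UTR, the stretch between stop codon and poly(A) tail, carries many of the signals for polyadenylation, stability, transport and translation of an mRNA, and hnRNP H is known to affect the choice of polyadenylation site near G-runs. In striatum, where most neurons are GABAergic projection neurons that receive dopamine, methamphetamine releases dopamine and other monoamines.

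The sites below show what such a G-run looks like in these 3′ UTRs. They are the 30 bases with the most guanines in runs within peaks of genes described further on, chosen to show the range of roles from synapse to RNA-binding protein, and they are not footprints of the protein. They lie in Ddx6 at chr9:44639725-44639754 (plus strand), Hnrnpa1 at chr15:103245559-103245588 (plus) and Elavl3 at chr9:22017876-22017905 (minus). The others lie in Foxp1 at chr6:98926908-98926937 (minus), Dlg4 at chr11:70044903-70044932 (plus), Hnrnpk at chr13:58392207-58392236 (minus), Ppp3r1 at chr11:17200207-17200236 (plus) and Tbc1d9 at chr8:83272253-83272282 (plus). Sequences are from GENCODE M21 transcripts (build GRCm38), are written 5′ to 3′ on the RNA's strand, and have runs of 3 or more G in capitals.
Ddx6: ttaataGGGGtGGGaGGGGaGGGtactgtg
Hnrnpa1: GGGGtGGGaggagtGGGaggtgaGGGtGGG
Elavl3: GGGtGGGGtGGGaGGGGaagaaaaactcta
Foxp1: GGGGGaGGGccgaGGGGaGGGtttttttgg
Dlg4: acctGGGGtctGGGGGGGagctGGGctcct
Hnrnpk: caaacaGGGttGGGGGGaGGGcatgcaaaa
Ppp3r1: tccttactGGGGaatgaGGGGttttctttt
Tbc1d9: GGGtGGGGGtGGGGGGGatgtgatccatct
The Hnrnpa1 site holds 16 of its 30 bases in runs of G, the most of the 8 sites shown. The sites of Hnrnpk and Ppp3r1 hold the fewest, with 12 and 8 G in runs, and those of Ddx6, Elavl3 and Dlg4 hold 14 each.

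A run of at least 3 G on the gene's sense strand was present in 333 of the 436 member windows whose sequence lay within 1 exon, 76.4% (Wilson 95% interval 72.2 to 80.1). Some of these windows are of peaks on the strand opposite their gene, where runs of G and C are swapped relative to the peak's strand. In the 364 windows in 3′ UTRs of principal transcripts, all on the peak's strand, 76.6% held a run of 3 G and 60.4% a run of 3 C. In all 100-base 3′ UTR windows of the same host genes the share was 65.0% (64.1 to 66.0, n = 9521), and over the 3′ UTRs of all genes of the RNA-seq table it was 61.3% (61.1 to 61.5, n = 240921). The gap was wider for runs of at least 4 G, with 42.9% of members (38.3 to 47.6) against 26.4% of host-gene windows (25.5 to 27.3) and 22.9% of all windows (22.7 to 23.1). Runs of 3 C, which are the same motif read from the opposite strand, were as frequent in members as around them, at 63.5% (58.9 to 67.9) against 63.5% of host-gene windows (62.5 to 64.5). The excess of runs was therefore in G and not in C in these windows, while GC content was also higher, with a median of 50% in members against 45% in host-gene windows. The intervals cover counting error only, and windows of 1 gene share its sequence, so no p is given.

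G-runs were about as frequent in the other 3′ UTR peaks. The run of at least 3 G was found in 78.9% (75.4 to 82.0, n = 588) of 3′ UTR positions in both lists and in 74.2% (71.1 to 77.1, n = 823) of those in the methamphetamine list only, and the intervals of all 3 sets overlap. Runs of at least 4 G were found in 48.5% (44.5 to 52.5) and 43.3% (39.9 to 46.7) of these sets. The polyadenylation hexamer AATAAA, searched on the sense strand, was in 5.96% (4.10 to 8.59) of members and in 5.46% (5.02 to 5.94) of host-gene windows. Among the members, 103 had no run of 3 G, and 35 had at least 20 guanines in runs. The peak with the most, 40 of its 100 bases, lay in Stum. Members without any run had much the same CLIP level as those with a run of 4 or more, with a median saline mean of 8.87 against 7.98 CPM (reads scaled to the library's total of peak reads).

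**Figure D1:**
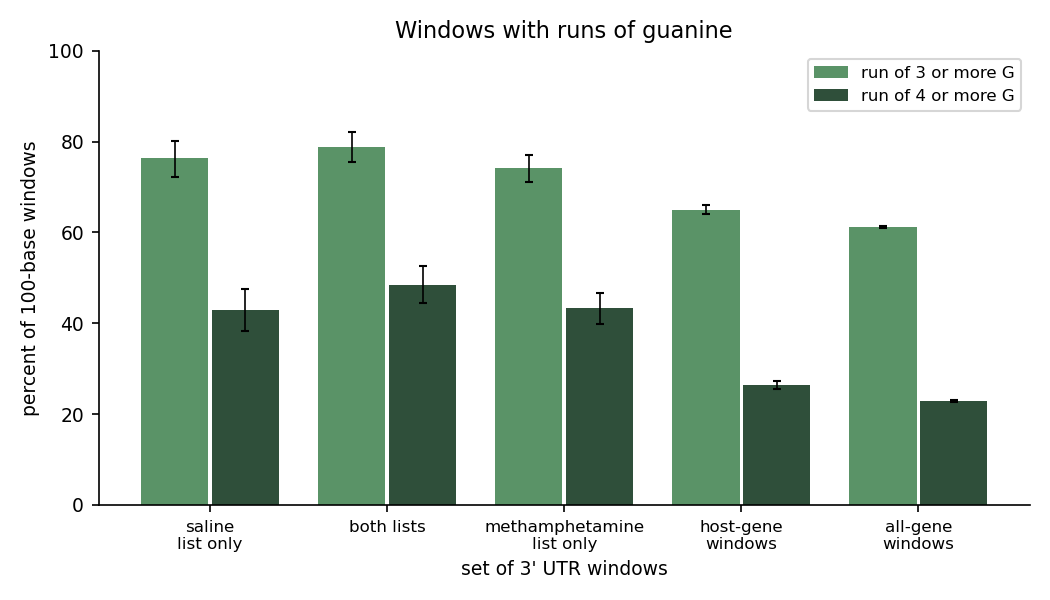
Percent of 100-base 3′ UTR windows (y axis) that hold a run of at least 3 or at least 4 guanines on the sense strand, in 5 sets of windows (x axis); bars are shares and lines are Wilson 95% intervals. The 3 sets of peaks stand at 74.2 to 78.9% and 42.9 to 48.5%, above the host-gene windows at 65.0% and 26.4%.

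The positions were spread along the whole 3′ UTR. Of the 441 that could be placed on a GENCODE 3′ UTR, 21.5%, 18.8%, 20.9%, 19.3% and 19.5% had their midpoint in the 5 equal parts of the 3′ UTR from stop codon to 3′ end, each with an interval that includes 20%. The median distance was 748 nt from the stop codon (quartiles 290 and 1930) and 851 nt from the annotated 3′ end, in 3′ UTRs of median length 2081 nt. Of these, 42 lay within 100 nt of the stop codon and 32 within 100 nt of the 3′ end. Positions in both lists had 24.3% (21.05 to 27.9) in the part next to the stop codon and 17.0% (14.2 to 20.2) in the one at the 3′ end, and the intervals overlap those of the members.

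**Figure D2:**
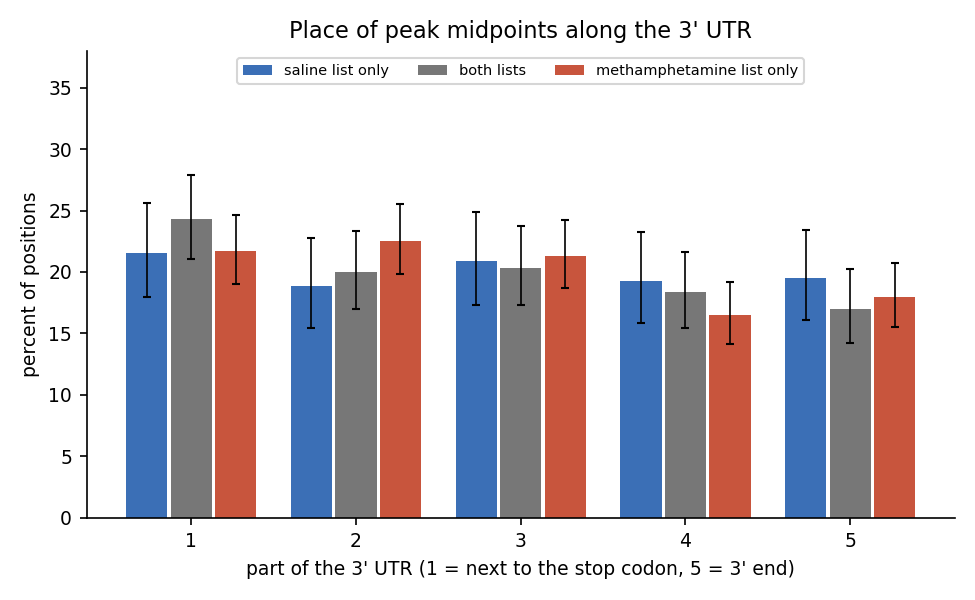
Percent of 3′ UTR positions (y axis) whose midpoint falls in each of 5 equal parts of the 3′ UTR from stop codon to 3′ end (x axis), for the saline list only, both lists and the methamphetamine list only; bars are shares and lines are Wilson 95% intervals. Each of the 5 holds 18.8 to 21.5% of the saline-only positions.

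Not every position is a 3′ UTR of the gene's usual mRNA. In GENCODE M21, 373 of 457 (81.6%) lay in the 3′ UTR of a principal transcript and 30 in that of another protein-coding transcript. A further 38 lay only in that of a transcript annotated for nonsense-mediated decay. The other 16 had no coding transcript of the named gene on the peak's strand. Peaks named for Tinf2, Gatad1 and Top2b are among these 16, and they lie on the strand opposite the gene's transcripts. On the main transcript of the gene, 30 positions lie in coding sequence, 18 in an intron, 1 in the 5′ UTR and 19 outside it. The same kinds of annotation made up 81.2% (principal) and 8.41% (decay only) of positions in both lists, against 81.6% and 8.32% of members. The deposited rows name more than 1 gene for 13 positions, and 25 members overlap another member, so the 457 positions form 443 separate stretches.

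Most host genes, 338 of 390, held a single member. Of the 390, 274 had no 3′ UTR position of any start in the methamphetamine list, while 187 had no position of any region there. The matching numbers for genes of the other 3′ UTR sets were not computed. In 116 host genes the methamphetamine list also held a 3′ UTR position. A methamphetamine-list position started within 200 nt of 97 members and within 1000 nt of 147, and 14 members overlapped one at a shift of 1 to 41 nt. These 14 are absent from the methamphetamine list by their start, not by their place: with overlap of at least 1 bp as the rule, 443 members are left.

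Before the values, 3 facts about the libraries bear on them. CLIP depth was 423057 to 1635338 reads in peaks per library, lowest in saline 2 and highest in saline 3, and RNA-seq depth was 3935160 to 5091839 reads. In both assays the libraries fell into sets that cut across treatment, saline 1, saline 3 and methamphetamine 2 (set A) against saline 2, methamphetamine 1 and methamphetamine 3 (set B), and the labels name no batch that follows them. All 8 markers of each cell type list were in the RNA-seq table. Summed levels of the striatal projection neuron markers were 6135 to 8528 CPM in saline and 5294 to 7321 in methamphetamine libraries, with the 3 highest sums in set A. The 8 markers of choroid plexus and ependyma summed to 5271 CPM in methamphetamine 2 and to 146 to 297 in the other libraries, and oligodendrocyte markers to 5163 to 12564 in saline and 8165 to 12599 in methamphetamine libraries. Sums for the other lists were 2454 to 4033 for astrocytes, 292 to 383 for microglia, 67.5 to 154 for endothelium, 206 to 898 for cortical excitatory neurons and 346 to 646 for striatal interneurons. In bulk tissue, fewer cells of a type and less RNA per cell cannot be told apart, and the part of any of these in the results was not tested.

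At the members the sets showed only in part. Over the 400 members with counts, Pearson correlations of log2(CPM + 1) were 0.640 to 0.773 within set A, 0.511 to 0.648 within set B and 0.231 to 0.657 between the sets, lowest between saline 2 and saline 1 and 3 (0.294 and 0.231). The range within set B lies inside the range between the sets. Methamphetamine 2, of set A, correlated at 0.657 and 0.646 with methamphetamine 1 and 3, of set B. These points share libraries and are a description. The other 57 members had no line in the count table, and are described by the authors' signal value alone.

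The members carried few reads. Their median was 6, 3 and 14.5 reads in saline 1, 2 and 3 and 6, 7 and 3 in methamphetamine 1, 2 and 3, and 139 of 400 (34.8%) had more than 3 reads in each saline library. Scaled to the peak reads of each library, the medians were 5.70, 7.09 and 8.87 CPM in saline and 6.60, 7.14 and 5.04 CPM in methamphetamine libraries. The treatments overlap, since methamphetamine 1 and 2 stand above saline 1. Together the members held 0.400%, 0.661% and 0.645% of the peak reads of the saline libraries (mean 0.569% ± 0.146, SD, n = 3) and 0.653%, 0.510% and 0.436% of the methamphetamine libraries (0.533% ± 0.110). The difference of 0.0356 percentage points is smaller than the spread within either treatment, and it was 0.0127 within set A and 0.116 within set B. It ranged from -0.0128 to 0.120 when single libraries were left out, so its direction turned with the library: it was -0.0106 without saline 2, -0.00251 without saline 3 and -0.0128 without methamphetamine 3.

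**Figure D3:**
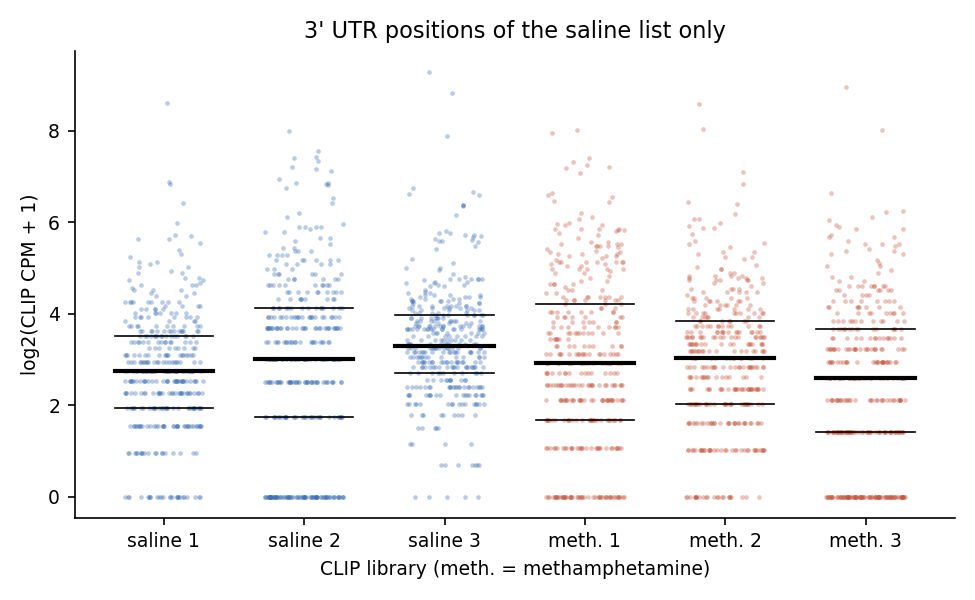
CLIP level of each of the 400 saline-only 3′ UTR positions with counts, as log2(CPM + 1) (y axis, a log scale), in each of the 6 CLIP libraries (x axis); points are positions, thick lines medians and thin lines quartiles. The medians of the 6 libraries lie close together at 5.04 to 8.87 CPM, with many positions at 0 in saline 2 and methamphetamine 3.

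Between treatments the members' libraries compared as follows. Mean saline CPM was above mean methamphetamine CPM at 260 of 400 members and below it at 140, with medians of the means of 8.14 and 6.09 CPM. All 3 saline libraries stood above all 3 methamphetamine libraries at 16 of 400 (4%), against 2.07% of all 147438 positions of the count table, and the reverse held at 11. Among members with more than 3 reads in each saline library it was 8 of 139 (5.76%), against 8.95% of the 10089 positions that met the same read minimum. For the reverse and for the split by mean, the shares over all positions were not computed. The lists were made from this contrast, and a read minimum in saline alone adds to the choice, so nothing is read from these counts and shares. For the 38 members with at least 10 reads in each saline library all saline libraries stood above all methamphetamine libraries at 0, and the saline mean was the higher one at 12. Shares over all positions were not computed at this minimum, so nothing is read from these counts either. As background, edgeR's quasi-likelihood test over all positions called 0 of the 10358 that passed its filter on low counts (0%), with 347 at an unadjusted p below 0.05, and DESeq2 called 1. The 138 members among those that passed had been selected on the same contrast, so their count of 0 calls says nothing about them.

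At many members most of the saline CPM came from 1 library. At 262 of 400 members 1 library gave more than 50% of the summed saline CPM: saline 3 at 125, saline 2 at 104 and saline 1 at 33. The share was above 80% at 53 members. The same counts were not computed for the other 3′ UTR sets or for all positions, so they are not shown to be particular to the members. The 104 positions led by saline 2 had a median of 21.3 CPM there, 3.80 and 5.81 CPM in saline 1 and 3, and 8.80, 6.12 and 5.04 CPM in the methamphetamine libraries. The 125 led by saline 3 had a median of 10.4 CPM there, 3.80 CPM in saline 1, 0 in saline 2 and 3.30, 5.10 and 1.68 CPM in methamphetamine 1 to 3. An example, chosen after its values were seen, is Diras2, a small GTPase of brain, at chr13:52506281-52506380 (minus strand): it had 5, 72 and 8 reads in saline and 2, 1 and 2 in methamphetamine libraries. Its groups do not overlap, yet saline 2 alone holds most of its reads.

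Members can also be split by whether the methamphetamine list holds a 3′ UTR position in the same gene. That list was itself made from methamphetamine CLIP reads, so differences between the groups in methamphetamine CPM follow in part from the split and are given as values only. The 265 members with counts in genes without such a position had median means of 7.56 CPM in saline and 4.72 in methamphetamine, with the saline mean higher at 198. The 135 with counts in genes with such a position had 10.8 and 12.6 CPM, with the saline mean higher at 62. For the 82 members with counts and a methamphetamine-list position within 200 nt, the medians were 12.1 CPM in saline and 18.8 CPM in methamphetamine, and 30 were higher in saline. This last group was chosen by nearness to a methamphetamine peak, and the same holds for it.

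The highest member was in Clcn1, the chloride channel known from skeletal muscle, at chr6:42298786-42298885 (plus strand). It had 392, 255 and 626 CPM in saline 1, 2 and 3 (424 ± 187, SD) and 151, 384 and 499 CPM in methamphetamine 1, 2 and 3 (344 ± 177). The position is a 3′ UTR only of a decay transcript and is coding on the main transcript, and the gene's RNA level was low, at 1.88 ± 0.27 log2 CPM in saline and 1.36 ± 0.34 in methamphetamine. The next was in Pigk, a subunit of the GPI transamidase that attaches proteins to their lipid anchor, at chr3:152907501-152907600 (plus strand), with 113, 9.45 and 454 CPM in saline and 15.4, 85.7 and 18.5 in methamphetamine. It was high in the 3 libraries of set A and low in the 3 of set B, in both treatments, and lies in the 3′ UTR of a decay transcript, outside the main one.

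Ddx6, an RNA helicase of processing bodies that acts in translational repression, held 3 members in a 3′ UTR of 4250 nt. The strongest, at chr9:44639693-44639792 (plus strand) around the G-runs shown above, had 117, 142 and 235 CPM in saline (164 ± 62.2) and 261, 262 and 73.9 in methamphetamine (199 ± 108). The other 2 Ddx6 members, with a single run of 3 G each, had saline means of 11.9 and 7.98 CPM. Ppp3r1, the regulatory subunit of the phosphatase calcineurin, held 6 members in 2069 nt. Its strongest, at chr11:17200164-17200263 (plus strand), had 52.2, 85.1 and 81.9 CPM in saline (73.1 ± 18.1) and 160, 114 and 60.5 in methamphetamine (111 ± 49.6). All 6 Ppp3r1 members had a higher mean in methamphetamine, from 5.08 to 111 CPM against 3.51 to 73.1 in saline, with overlapping libraries at the one given. Dpysl2, a collapsin response mediator of axon growth, held 3 members with no G-run in any, and mean saline levels of 16.1 to 67.0 CPM.

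Pcdhgc4, of the clustered protocadherins that give neurons their surface identity, held the most members, 7, at shifts of 1 to 29 nt from methamphetamine-list positions. The clustered gamma genes share their last exons, so these reads cannot be assigned to 1 gene of the cluster. They show how thin the line between lists is: 1 member had 7, 3 and 13 reads in saline and 13, 12 and 14 in methamphetamine libraries and a signal value of 1.64, and the methamphetamine-list position 1 nt away had 6, 3 and 14 against 12, 12 and 14 reads and a signal value of 2.01. On the CPM scale each methamphetamine library stood above each saline library at this member (16.7 ± 6.00 against 7.23 ± 0.663 CPM). The overlapping member with the most reads was in Hnrnpul2, a nuclear ribonucleoprotein, at chr19:8831874-8831973 (plus strand), with 41, 8 and 85 reads in saline and 66, 52 and 15 in methamphetamine. The next, in the apoptosis inhibitor Bcl2l2 at chr14:54885778-54885877 (plus strand), had 8, 2 and 21 against 34, 11 and 11 reads. All members had a q-value of at most 0.0498 in the authors' list, and 338 had one of at most 0.01.

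The authors' signal value, whose scale is not given, ran from 0.75 to 5.67 over the members, with a median of 1.52 against 1.55 in positions of both lists and 1.37 in methamphetamine-only ones. The highest was in Pcnx, a pecanex membrane protein, at chr12:82000469-82000568 (plus strand), where it stood beside 6, 4 and 24 reads in saline and 3, 13 and 1 in methamphetamine. Clcn1 followed at 4.44. Mtrf1l, a release factor of mitochondrial ribosomes, had 4.42 at chr10:5812888-5812987 (minus strand) with 0, 14 and 1 reads in saline and 1, 0 and 1 in methamphetamine, so its saline reads were nearly all in saline 2.

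The members closest to a separation with at least 10 reads in each saline library were in Nucks1, Srcin1, Usp9x, Slit2, Tent5c and Ttbk2, among others. Nucks1, a nuclear kinase substrate, had 10.4, 37.8 and 23.2 CPM in saline and 12.1, 12.2 and 5.04 in methamphetamine at chr1:131934435-131934534 (plus strand), so only saline 1 fell among the methamphetamine values. Srcin1, an inhibitor of Src kinase at synapses, had 15.2, 23.6 and 15.9 against 4.40, 10.2 and 16.8 CPM at chr11:97509741-97509840 (minus strand). Usp9x, a deubiquitinase, had 17.1, 73.3 and 14.1 against 15.4, 10.2 and 8.40 CPM at chrX:13169799-13169898 (plus strand). In each of these 3 a single methamphetamine library reached above the lowest saline library, or in Nucks1 a pair of them.

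Slit2, the secreted axon guidance cue, had 62.7, 49.6 and 101 against 34.1, 83.7 and 50.4 CPM at chr5:48249839-48249938 (plus strand), a position that is coding on the main transcript. Tent5c, a non-canonical poly(A) polymerase, had 33.2, 44.9 and 50.1 against 24.2, 39.8 and 52.1 CPM at chr3:100468129-100468228 (minus strand). The pair of overlapping positions in Ttbk2, the tau tubulin kinase, at chr2:120737355-120737454 (minus strand) and chr2:120737317-120737416 (minus strand) had the same reads, 19, 10 and 34 in saline and 17, 27 and 7 in methamphetamine, and count as 1 stretch. In these 3 genes the highest methamphetamine library stood above at least 1 saline library.

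**Figure D4:**
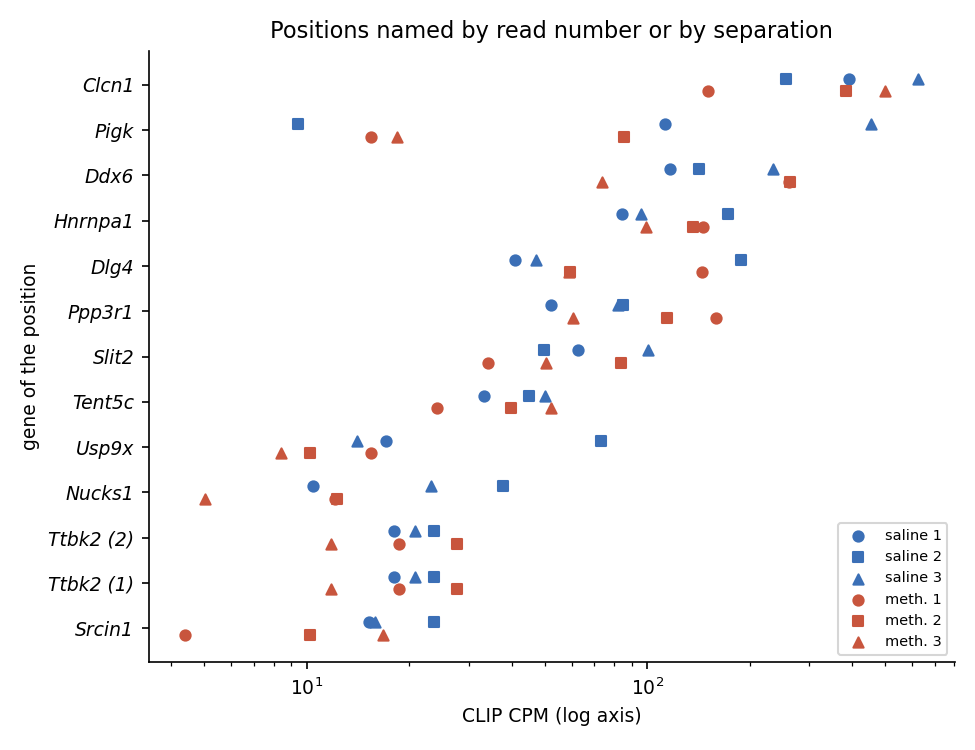
CLIP CPM (x axis, log scale) of positions named for their read number or their ratio between treatments (y axis, one position per line) in each library; blue points are saline 1 to 3, red points methamphetamine 1 to 3, with a symbol per replicate number. Red and blue points interleave on every line, from Srcin1 at 4.40 to 23.6 CPM to Clcn1 at 151 to 626 CPM.

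Among 20 genes known for striatal projection neurons, 3 held members: Adora2a, Foxp1 and Rasgrp2. Adora2a, the adenosine receptor of the indirect pathway, had 14.2, 59.1 and 18.3 CPM in saline and 49.5, 18.4 and 38.6 in methamphetamine at chr10:75334478-75334577 (plus strand), high in the 3 libraries of set B. Foxp1, a transcription factor of these neurons, at chr6:98926839-98926938 (minus strand), had 8, 2 and 19 reads in saline (7.98 ± 3.46 CPM) and 12, 14 and 8 in methamphetamine (13.6 ± 0.572 CPM). Although saline-listed, it was higher in each methamphetamine library than in any saline library on the CPM scale. Rasgrp2, an exchange factor for the GTPase Rap1 that is abundant in striatum, held a pair of members that did not move together. At chr19:6404641-6404740 (plus strand), coding on the main transcript, it had 18, 14.2 and 17.1 CPM in saline (16.4 ± 2.01) and 8.80, 10.2 and 5.04 in methamphetamine (8.01 ± 2.67), without overlap of the groups. At chr19:6415041-6415140 (plus strand), in the 3′ UTR of the principal transcript, it had 48.4, 61.5 and 81.3 (63.7 ± 16.6) against 85.8, 71.4 and 42.0 CPM (66.4 ± 22.3). The first lies in a 3′ UTR of a decay transcript.

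Of 22 glutamate receptor genes 1 held members, Grin2b, the GluN2B subunit of NMDA receptors, with 4 positions in a 3′ UTR of 18865 nt. The first, chr6:135714934-135715033 (minus strand), lies 17114 nt from the stop codon and had 25.6, 14.2 and 26.9 CPM in saline (22.2 ± 7.01) and 12.1, 22.5 and 15.1 in methamphetamine (16.6 ± 5.32). It was higher in set A in both treatments. The next, chr6:135721234-135721333 (minus strand), has no G-run and had 20.9, 28.4 and 14.1 against 57.2, 18.4 and 10.1 CPM. A further one had saline and methamphetamine means of 6.94 and 6.77 CPM, and the fourth had no line in the count table.

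At the postsynaptic scaffold 4 of 22 listed genes held 7 members. Dlg4, which encodes PSD-95, had 40.8, 189 and 47.1 CPM in saline (92.3 ± 83.9) and 145, 59.2 and 58.8 in methamphetamine (87.7 ± 49.8) at chr11:70044843-70044942 (plus strand), 198 nt past the stop codon. Saline 2 and methamphetamine 1, both of set B, were high. Nlgn1, a neuroligin of excitatory synapses, at chr3:25427816-25427915 (minus strand), had 3, 48 and 0 reads in saline and 31, 0 and 0 in methamphetamine, thus nearly all in the same 2 libraries. Nlgn2, the neuroligin of inhibitory synapses, held a pair of members with saline means of 9.39 and 4.82 CPM, and Camk2b, a subunit of the calcium/calmodulin kinase, a pair without counts. For inhibition, 1 of 18 GABA genes held a member, Slc32a1, the vesicular GABA transporter, at chr2:158615168-158615267 (plus strand) with 6, 6 and 28 reads in saline and 22, 23 and 3 in methamphetamine.

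On the presynaptic side 4 of 25 vesicle release genes held 1 member each. The SNARE gene Snap25 (at chr2:136781954-136782053, plus strand) had 2, 13 and 7 reads in saline and 52, 6 and 4 in methamphetamine, and the SNARE gene Vamp2 (at chr11:69091491-69091590, plus strand) had 7, 6 and 9 against 36, 12 and 6. Cplx2, which clamps and promotes SNARE fusion, at chr13:54381450-54381549 (plus strand), had 3, 6 and 14 against 31, 11 and 1, and the vesicle protein gene Syp (at chrX:7652472-7652571, plus strand) had 6, 0 and 20 against 5, 3 and 5. In the first 3 of these methamphetamine 1 had the most reads of any library. Of 31 voltage-gated channel genes 4 held a member: the calcium channel Cacna1e, the sodium channel subunits Scn2b and Scn4b and the potassium channel Kcna1. Scn2b (at chr9:45127783-45127882, plus strand) had 8, 3 and 33 against 10, 18 and 14 reads and Kcna1 (at chr6:126640498-126640597, minus strand) 5, 0 and 12 against 2, 6 and 2, while the others had no counts. Egr3 was the single member among 20 immediate early genes, the genes transcribed within minutes of neuronal activity, at chr14:70080504-70080603 (plus strand) with 4, 2 and 13 against 7, 6 and 0 reads.

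Genes for RNA-binding proteins made up 6 members in 5 of 41 listed genes, none of them hnRNP H's own gene. Hnrnpa1, a splicing repressor, had 84.5, 173 and 96.0 CPM in saline (118 ± 47.9) and 146, 137 and 99.1 in methamphetamine (127 ± 25) at chr15:103245533-103245632 (plus strand), in the 3′ UTR of a decay transcript and outside the main one. Hnrnpk, which binds C-rich RNA, at chr13:58392143-58392242 (minus strand), had 3, 9 and 29 against 21, 21 and 14 reads, and Elavl3, a neuronal stabiliser of AU-rich mRNAs, had 18, 11 and 15 against 36, 8 and 15 at chr9:22017806-22017905 (minus strand), around its site above. Qk, of the oligodendrocyte splicing regulator quaking, at chr17:10211602-10211701 (minus strand) had 4, 5 and 5 against 10, 2 and 0 reads. The treatments overlapped in Hnrnpa1, Elavl3 and Qk; in Hnrnpk all 3 methamphetamine libraries (22.7 ± 1.10 CPM) stood above the saline libraries (14 ± 9.78 CPM), the lowest at 21.4 against 21.3 CPM in saline 2.

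Of 20 cleavage and polyadenylation genes 1 held members, Pabpn1, the nuclear poly(A)-binding protein, with 3 positions that lie in an intron or in coding sequence of its main transcript. The pair that overlaps had 7, 4 and 11 reads in saline and 13, 10 and 0 in methamphetamine, and the third, chr14:54898001-54898100 (plus strand), had 6, 5 and 27 against 26, 9 and 2. Of 24 motor and cytoskeleton genes 5 held 7 members. Kif1a, a kinesin that carries vesicle precursors, at chr1:93015865-93015964 (minus strand), had 11, 18 and 22 against 51, 5 and 5 reads, Kif5c, a kinesin heavy chain, at chr2:49773699-49773798 (plus strand), 12, 1 and 20 against 2, 8 and 3, and Tuba1a, an alpha tubulin, at chr15:98949938-98950037 (minus strand), 10, 2 and 18 against 6, 6 and 5. Actb, beta-actin, at chr5:142903116-142903215 (minus strand), had 5, 13 and 14 against 31, 13 and 11 reads, and the pair in Kif5a had no counts.

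Glial mRNAs also held members. The myelin genes Mbp and Mobp held a member each without counts. Slc1a2, the glutamate transporter of astrocytes, held 3 members, of which the 1 with counts, chr2:102787760-102787859 (plus strand), had 4, 9 and 10 reads in saline and 40, 10 and 10 in methamphetamine.

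The rule that chose the members does not read the RNA-seq values, though whether the authors' peak calling used these libraries, which the labels call input, is not given in the sources used here. RNA-seq asks whether the host mRNAs themselves differed between treatments. Of the 390 host genes 383 were in the RNA-seq table, and with limma 0 passed an adjusted p of 0.05 in either direction, as did 0 of all 18208 genes (0%). At an unadjusted p below 0.05 there was 1 host gene, Tbc1d9, against 276 of all genes. edgeR on the whole reads recovered from the table called 0 of the 364 host genes it tested, 1 at an unadjusted p below 0.05. The median log2 change of the host genes, methamphetamine minus saline, was 0.0094 (quartiles -0.14 and 0.14) against 0.0020 for all genes, with 198 of 383 above 0, against 9172 of 18208. Every saline library stood above every methamphetamine library for 8 host genes (2.09%, against 3.58% of all genes), and the reverse held for 5 (1.31%, against 2.44%).

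Tbc1d9, of a family of Rab GTPase-activating proteins, had the smallest p. Its RNA level was 6.54, 6.70 and 6.25 log2 CPM in saline 1, 2 and 3 and 6.74, 7.22 and 7.04 in methamphetamine 1, 2 and 3. The methamphetamine values lie above the saline values without overlap, and the log2 change was 0.50 ± 0.19 (SE; limma, Benjamini-Hochberg adjusted p = 0.9998), which does not pass. Its CLIP position, chr8:83272253-83272352 (plus strand) with the G-runs shown above, had 4, 12 and 14 reads in saline and 42, 9 and 8 in methamphetamine. The next were Ccp110, a centriole protein, with a log2 change of 0.51 ± 0.25, Tent5c with 0.71 ± 0.35 and Aup1, a protein of lipid droplets and of the endoplasmic reticulum, with 0.34 ± 0.17, none past the threshold (adjusted p = 0.9998 in each, limma).

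Among host genes of the strongest CLIP positions, Clcn1 had a log2 change in RNA of -0.52 ± 0.39 (SE) and Slit2 one of 0.29 ± 0.25, and neither passed the adjusted threshold. The log2 change was smaller than its SE in 5 others: 0.20 ± 0.37 (SE) for Ddx6, 0.18 ± 0.19 for Hnrnpa1, -0.06 ± 0.22 for Dlg4, -0.12 ± 0.17 for Ppp3r1 and 0.07 ± 0.19 for Grin2b. Rasgrp2 had a change of about 1 SE, -0.21 ± 0.21, and Diras2 had 0.16 ± 0.20. Both hold a member among the 16 of 400 where all saline CLIP libraries stood above all methamphetamine ones. The lists were made from that contrast, so nothing is read from it beside the RNA change. None of the 10 gene lists had a member of the list past the adjusted threshold in either direction. The 20 striatal projection neuron genes had a median log2 change of -0.21 with 0 of 20 above 0, beside the lower summed marker level in set B given above, and the 20 immediate early genes one of 0.11 with 16 above 0. The medians of the other 8 lists ran from -0.07 (GABA genes) to 0.12 (vesicle release genes, 22 of 25 above 0), against 0.0020 for all genes.

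**Figure D5:**
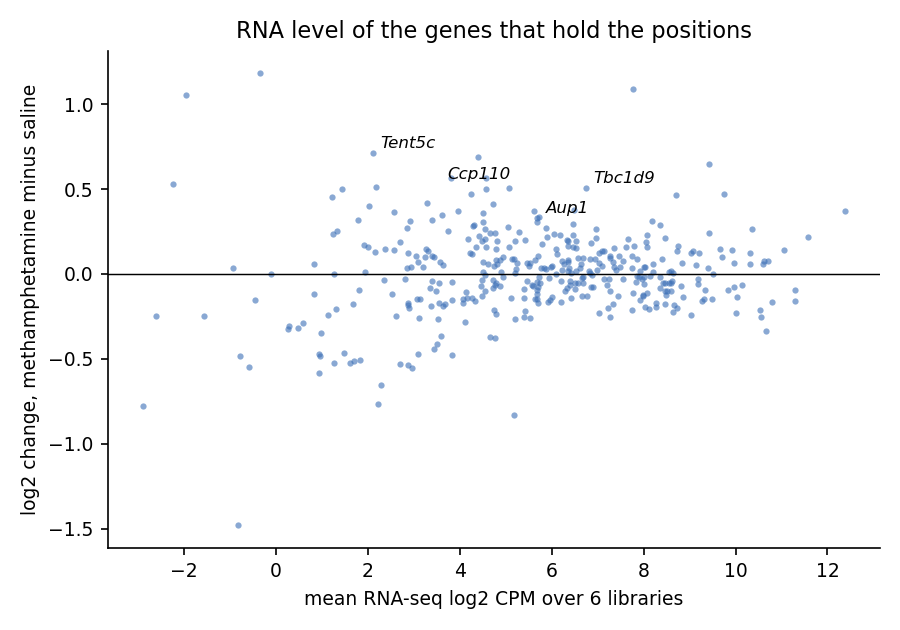
RNA-seq log2 change, methamphetamine minus saline (y axis), against the mean log2 CPM over the 6 libraries (x axis) for the 383 host genes in the table; each point is a gene and the 4 with the smallest unadjusted p are named. The points scatter about 0 with a median of 0.0094, and none passes the adjusted threshold.

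RNA level and CLIP level went together loosely. Over the 392 members with both values, mean log2(CLIP CPM + 1) and mean RNA log2 CPM had a Pearson correlation of 0.306 and a Spearman correlation of 0.373, given as a description of positions that share genes and libraries. RNA levels here are per gene and not divided by length. Host genes without a methamphetamine-list 3′ UTR position had a median RNA level of 4.77 log2 CPM, against 5.73 for all host genes, 6.06 for genes of positions in both lists and 6.78 for genes of methamphetamine-only positions. The 57 members without counts lay in genes of high RNA level, with a median over positions of 8.44 log2 CPM against 6.20 for all members, and had a median signal value of 1.31 against 1.52.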

How the data were processed

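The 6 CLIP-seq libraries (hnRNP H, membrane cut from 50 to 75 kDa, fragments of 30 to 70 nt per the labels' protocols) and 6 RNA-seq libraries were used, 3 pools per treatment. Mutant samples were not analysed here. The members and gene lists were chosen with earlier results of these data known.

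Per the file headers, the CLIP table as deposited holds raw counts for each peak; each of 147438 distinct positions was used once, from 172271 lines. The deposited peak lists hold the authors' signal value (treated as a score, scale not given) and a q-value (the authors' p-values were not used), the caller and its test being not given in the sources used here; each treatment has 1 list, so replicates cannot be compared within it. RNA-seq was deposited as log2 CPM, made with voom per the labels; 100% inverted to whole reads within 0.01. Whether counting used strand is not given in the sources used here. The submitters' processing notes name Trimmomatic, UMI-tools, STAR, bedtools, Subread, featureCounts, limma, edgeR and mm10, without roles. If UMIs were not collapsed, reads are not independent molecules, so intervals cover counting error only.

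From these, CPM were reads scaled to a library's total of peak reads; starts were read as 0-based and printed 1-based on GRCm38. RNA was tested with limma 3.58.1 (trend) on all 18208 genes and CLIP with edgeR 4.0.16 (TMM, filterByExpr, quasi-likelihood), in R 4.3.3, with Benjamini-Hochberg adjustment at 0.05; DESeq2 1.42.0 was an alternative. The fits were tested on simulated data, where they recovered many or most of the larger changes put in and few or none of the smaller ones, so 0 calls does not show that levels were equal. Shares have Wilson 95% intervals (scipy 1.17.1). Sequence and place came from GENCODE M21 transcripts for windows within 1 exon; comparison windows of 100 bases tile the 3′ UTRs of 16549 transcripts. Motifs searched, on the sense strand of the gene whichever the peak's strand, were runs of at least 3 G and of at least 4 G (the latter are part of the former), runs of at least 3 C and the hexamer AATAAA.

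Positions were named by rule: the 8 with the highest mean saline CPM and more than 3 reads in each saline library; the 8 with the largest ratio of lowest saline to highest methamphetamine CPM (0.5 reads added) and at least 10 reads in each saline library; the 4 highest signal values; the 5 genes with most positions, ties taken alphabetically; members in a gene list; the 4 host genes with the smallest RNA p; and the 3 deepest positions that overlap a methamphetamine position. Marker hosts, Diras2 and Stum were named after their values were seen. Alternatives covered filters, pseudocount, scaling, trend, overlap rule, signal minimum, window length, a replicate block and leaving out each replicate; library set, recovered reads and GENCODE regions were added after seeing the data. Some items that these rules name are not reported here.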

Additional observations from a re-analysis of the deposited data

How the results depend on the processing

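The count of 0 host genes past the adjusted RNA-seq threshold held under all alternatives run; 0 to 17 of them had an unadjusted p below 0.05, the most without saline 2. Their median log2 change ranged from -0.0249 (without methamphetamine 3) to 0.0373 (without methamphetamine 2), and was -0.0034 with edgeR on recovered reads. In the CLIP fit, whose contrast chose the members so that their calls are no test of them, 2 members and 414 positions in all were called without the filter on low counts, and 0 members under the other settings. The members numbered 190 at or above the saline list's median signal value, 419 with 3′ UTR last of the exon types, 373 by principal GENCODE transcripts and 443 by either overlap rule. Positions with every saline library above every methamphetamine library numbered 8 of 139 with over 3 reads in each saline library and 23 of 400 with TMM-scaled CPM. The share over all positions was not computed with TMM scaling, and the same contrast chose the members, so nothing is read from these counts. The share of windows with GGG was 89.5% in windows lengthened by 25 bases on each side (n = 411). The difference in share of peak reads was 0.108 percentage points without the 1% of positions with the most counts. The causes of these shifts were not tested, except that fewer positions or longer windows enter by construction. Replicate numbers did not pair the pools: same-numbered deviations correlated at -0.35, -0.82 and -0.49 in RNA-seq and -0.37, -0.55 and -0.08 in CLIP. With the replicate block 0 host genes and 0 members were called, and the median RNA change was 0.0094. The members' median of 3 reads in saline 2 and in methamphetamine 3 limits what single positions can show.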

Other observations

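Members that are 3′ UTR only of a transcript annotated for nonsense-mediated decay had the higher median CLIP level in saline, 10.9 CPM against 8.14 over all members, and 5.23 against 6.09 CPM in methamphetamine, with the saline mean higher at 25 of the 33 with counts. Their genes had a median RNA level of 4.75 log2 CPM against 6.48 for members on principal transcripts, not divided by length.

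The 35 members with at least 20 guanines in runs went the other way: the 32 with counts had median means of 13.5 CPM in saline and 20.96 CPM in methamphetamine, with the saline mean higher at 10. Both groups were picked after the values were seen, and the values are a description of the contrast on which the lists were made. Within 300 nt of the stop codon 84.5% of 103 windows held GGG, against 78.2% of 101 windows more than 2000 nt from it, at median GC contents of 53% and 47%.

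At 10 of the 400 members with counts no methamphetamine library had a read, which at this depth does not show that binding was absent. They lie in Ebpl, Pole3, Usp35, Zbtb37, Tmem239, Minar2, Ptafr, Serpina3c and, as an overlapping pair, Acot4. At 76 members, these 10 among them, each methamphetamine library had at most 3 reads. The lists were made from this contrast and the shares over all positions were not computed, so nothing is read from these counts.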
